A study of Homo sapiens with 60 samples.

Results

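Saposhnikoviae Radix, the dried root of Saposhnikovia, was set against Menthae Herba, the dried herb of mint, at the same dose and time in HepG2 cells, an established line from a human hepatocellular carcinoma. The samples were chosen by their labels and the column names of the count table, and they are 6 of the 60 samples of the series: 3 libraries with the 70% ethanol extract of Saposhnikoviae Radix at 500 ug/mL and 3 with that of Menthae Herba at 500 ug/mL, all harvested after 24 h and carrying set label 12. The series measured RNA after herb and decoction extracts at several doses. The doses of 100 and 20 ug/mL of the same extracts, 3 libraries each and in the same set, and 3 DMSO vehicle libraries with a set label of their own serve here as references. Per the labels the vehicle was 0.1% DMSO, whereas the design text names 2% DMSO. HepG2 is a single transformed line. Nothing in the labels tells if the 3 libraries of a group came from independent cultures. The p-values and SE therefore cover just the scatter among libraries within groups, possibly a technical one. That scatter was estimated over all 22 groups of the fit, not from the 6 libraries alone. In bulk RNA, fewer cells of a kind and less RNA per cell cannot be told apart.

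The 6 libraries held 23.3 to 31.8 M counts, and the 60 libraries a median of 23.7 M. Levels are given as CPM, counts scaled to library size. All 10 hepatocyte markers were detected with both extracts, at a summed level of 51293 to 51729 CPM with Saposhnikoviae Radix and 24916 to 28422 CPM with Menthae Herba. Most of this gap was the single gene APOB, at means of 26409 CPM and 7470 CPM. AHSG and TTR had higher means with Menthae Herba, and the other markers had lower ones. Blood cell markers, mostly LYZ, summed to 1116 to 1192 CPM and 1569 to 1613 CPM, with 6 of 8 and 5 of 8 under 1 CPM. Stromal markers summed to 56.6 to 61.5 CPM and 46.5 to 48.4 CPM, endothelial markers to 5.52 to 5.95 CPM and 2.88 to 4.46 CPM, and lung and gut markers to 333 to 349 CPM and 294 to 331 CPM. The part of these shifts in the results was not tested. Menthae Herba replicate 1 stood apart by more than 1.5 times in few genes. There 23 of 10784 genes of at least 5 CPM exceeded both other Menthae Herba libraries by that much, against 12 and 5 genes in replicates 2 and 3. Smaller departures were wider: the chi-square per gene between 2 libraries was 7.84 and 7.74 in the pairs with replicate 1. Between replicates 2 and 3 it was 4.22. Replicate 1 was also the deepest of the 6 libraries. Values without replicate 1 are given for some of the genes and lists below.

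Several programmes of the liver cell are touched by the results. Metallothioneins are small proteins that hold zinc and copper, and their genes, like that of the zinc exporter SLC30A1, are switched on by the zinc sensor MTF1 through metal response elements near their starts. Cholesterol and fatty acid synthesis genes are driven by the SREBP factors, and hepcidin (HAMP), the hormone that limits iron export, is driven in hepatocytes by BMP receptors and SMAD proteins, which also drive the ID genes. The factor ATF4 serves amino acid shortage and other stresses through genes of amino acid supply such as ASNS. NRF2 serves oxidant and electrophile defence, FOXO factors raise gluconeogenic genes and IGFBP1 when insulin signalling is low, and the receptor AHR, activated by many plant aromatics, drives CYP1A1.

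Promoters of 6 genes that carry the contrast are shown, as the 250 bases before the start in RefSeq (GRCh38.p14), 5′ to 3′ along the gene, with motif matches on either strand in capitals. For the metallothioneins MT1X and MT2A and the exporter SLC30A1, capitals mark TGCACNC or TGCGCNC, the core of a metal response element. MT1X lies at chr16:56682220-56682469 (+), MT2A at chr16:56608334-56608583 (+) and SLC30A1 at chr1:211579162-211579411 (-).
MT1X: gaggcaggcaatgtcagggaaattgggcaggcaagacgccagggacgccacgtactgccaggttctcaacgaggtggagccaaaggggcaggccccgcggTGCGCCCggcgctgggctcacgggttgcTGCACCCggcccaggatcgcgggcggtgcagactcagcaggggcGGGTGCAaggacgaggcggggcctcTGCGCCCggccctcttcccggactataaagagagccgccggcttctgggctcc
MT2A: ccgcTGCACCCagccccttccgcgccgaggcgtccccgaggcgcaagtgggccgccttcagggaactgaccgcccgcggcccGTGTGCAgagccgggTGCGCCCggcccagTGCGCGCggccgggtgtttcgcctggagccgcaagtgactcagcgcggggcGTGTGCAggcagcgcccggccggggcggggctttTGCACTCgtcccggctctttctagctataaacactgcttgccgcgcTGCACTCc
SLC30A1: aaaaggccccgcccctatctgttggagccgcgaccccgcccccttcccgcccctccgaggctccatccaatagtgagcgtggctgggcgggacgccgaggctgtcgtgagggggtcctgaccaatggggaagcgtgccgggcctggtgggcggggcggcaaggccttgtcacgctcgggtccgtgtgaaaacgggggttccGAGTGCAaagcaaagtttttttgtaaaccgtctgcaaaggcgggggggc
For ASNS, at chr7:97872409-97872658 (-), capitals mark TGATGNAA, an ATF4-type element. RefSeq gave 2 promoters for ASNS, and a window with the most matches was taken. For KIF20A, a mitotic kinesin at chr5:138178862-138179111 (+), they mark the CCAAT box, which is frequent in promoters of mitosis genes. For CYP1A1, at chr15:74725529-74725778 (-), they mark GCGTG, the core of the AHR element.
ASNS: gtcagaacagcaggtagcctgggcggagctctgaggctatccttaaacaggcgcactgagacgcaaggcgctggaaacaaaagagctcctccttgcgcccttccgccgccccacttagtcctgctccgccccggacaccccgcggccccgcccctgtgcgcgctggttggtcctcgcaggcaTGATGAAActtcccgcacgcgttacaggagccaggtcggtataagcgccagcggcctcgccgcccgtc
KIF20A: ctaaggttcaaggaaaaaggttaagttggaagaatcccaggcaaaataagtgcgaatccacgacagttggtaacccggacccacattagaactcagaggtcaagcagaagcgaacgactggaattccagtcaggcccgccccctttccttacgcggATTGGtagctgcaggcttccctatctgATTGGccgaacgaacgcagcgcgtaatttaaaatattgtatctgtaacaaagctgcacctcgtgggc
CYP1A1: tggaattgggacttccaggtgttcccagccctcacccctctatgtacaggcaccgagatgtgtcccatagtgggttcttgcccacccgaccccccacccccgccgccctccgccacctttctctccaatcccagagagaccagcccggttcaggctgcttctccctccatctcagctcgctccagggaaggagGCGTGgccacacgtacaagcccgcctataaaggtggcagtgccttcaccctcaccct
The MT1X window held 4 matches, the MT2A window 7 and the SLC30A1 window 1. All 4 metallothionein-list promoters in the RefSeq table held a match, against 24.8% of all 35116 promoters. CCAAT stood in 81.2% of the 32 promoters of mitosis genes in the table and in 32% of all promoters, and TTTGAA, part of the cell cycle homology region, in 56.2% and 13.3%. TGATGNAA was in 3 of 25 promoters of the ATF4 list (12%) and 3.14% of all. GCGTG was in 6 of 12 promoters of the AHR list (50%) and 32.2% of all, and TGACNNNGC in 5 of 20 promoters of the NRF2 list (25%) and 10.9%. TCACNCCAC was in 1 of 23 promoters of the cholesterol list (4.35%) and 0.883% of all. The motifs can share letters: GCGTGCA, the reverse complement of TGCACGC, holds both the metal and the AHR core. Each window was searched for its own list's motif alone, and a match is a description of the letters only.

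At 500 ug/mL, 3600 of 16982 tested genes (21.2%) differed between the extracts by the edgeR quasi-likelihood test at a Benjamini-Hochberg adjusted p under 0.05. Of these, 2012 (11.8%) were higher with Saposhnikoviae Radix and 1588 (9.35%) with Menthae Herba. These shares of all genes are the background of every list count at 500 ug/mL given below. Most differences were small: the median absolute log2 difference of the called genes was 0.28, and 105 genes were at least 2-fold higher and 87 at least 2-fold lower with Saposhnikoviae Radix. With only genes of a mean of at least 1 CPM, the sum of these fell from 192 to 89. The libraries of the groups did not overlap for 37.6% of all genes tested, 19.4% with Saposhnikoviae Radix above and 18.2% with Menthae Herba above.

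The same contrast was nearly empty at the lower doses. At 100 ug/mL 24 genes were called (0.141%), 18 higher with Saposhnikoviae Radix (0.106%) and 6 with Menthae Herba (0.0353%), and at 20 ug/mL 1 gene, CYP1A1 (0.00589%), with 472 genes at an unadjusted p under 0.05. Without the filter on low counts these counts were 154 and 91. The 24 were 47 with the replicate number as a block, 9 without Menthae Herba replicate 1 or 2, 12 without its replicate 3, and 10 and 12 without Saposhnikoviae Radix replicate 1 and 3. The 1 was 2 without Menthae Herba replicate 1. The difference at 500 ug/mL exceeded or fell short of that at 20 ug/mL for 1803 genes (10.6%), tested as an interaction in the same edgeR fit, with 1066 (6.28%) shifted toward Saposhnikoviae Radix and 737 (4.34%) toward Menthae Herba. Set against its own 20 ug/mL libraries, Saposhnikoviae Radix at 500 ug/mL changed 141 genes (0.83%) and Menthae Herba 3954 (23.3%). The 141 were 62 and 78 without the high-dose replicates 1 and 2 of Saposhnikoviae Radix, 87 and 57 without its low-dose replicates 2 and 3, 314 with the replicate block and 389 in a fit of only the groups compared. The comparisons of 500 with 20 ug/mL within an extract use the same 500 ug/mL libraries as the comparison of the extracts, so their values are given only side by side. Against vehicle, which carries another set label, 6811 genes were called with Saposhnikoviae Radix at 500 ug/mL and 8185 with Menthae Herba. Set and treatment cannot be told apart there, so vehicle means are given as levels only.

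**Figure D1:**
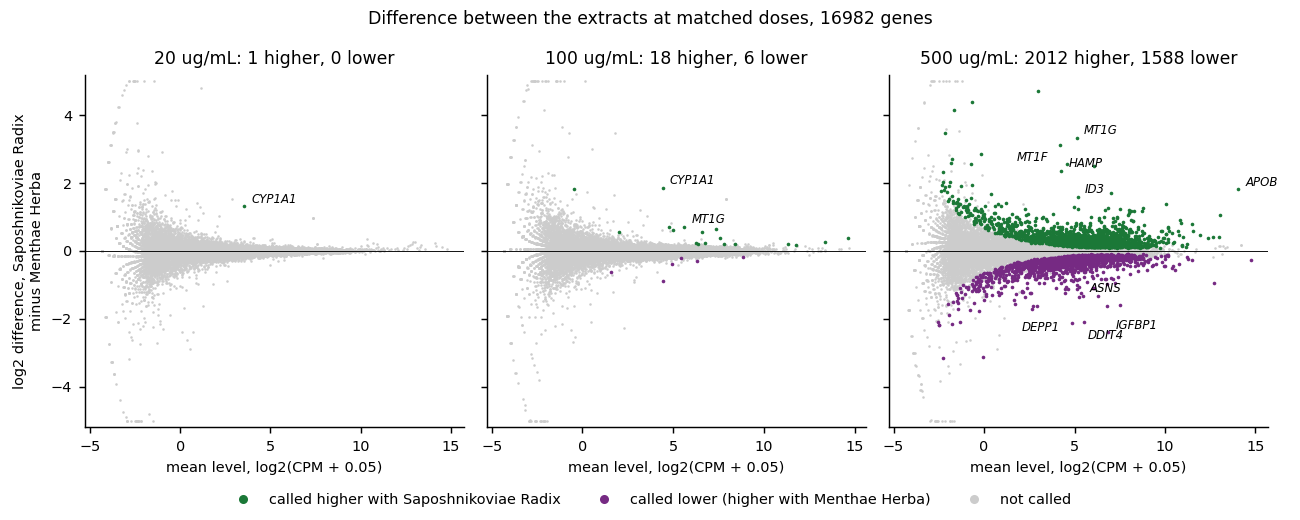
Log2 difference of Saposhnikoviae Radix minus Menthae Herba (vertical) against mean level as log2(CPM + 0.05) (horizontal) for 16982 genes at 20, 100 and 500 ug/mL. Green and purple points passed the edgeR test, and the few genes past 5 in size are drawn at the edge. The called genes go from 1 to 24 to 3600 with dose.

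The metallothioneins held the largest differences of the named genes. All 8 tested members of the list of metallothioneins and SLC30A1 were higher with Saposhnikoviae Radix, with a median log2 difference of 2.53, whereas the median over all genes tested was -0.002. MT1G was at 66.7, 61.4 and 61.1 CPM with Saposhnikoviae Radix and at 6.16, 6.22 and 6.38 CPM with Menthae Herba. The libraries of each extract lay close together and far from those of the other, a log2 difference of 3.33 ± 0.12 (SE, n = 3 and 3, edgeR adjusted p = 3.8e-25). MT1G, at chr16:56666731-56668065 on GRCh38, is 1 of the cluster of metallothionein genes on chromosome 16.

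The other members gave the same picture. MT1F was at 33.0, 31.5 and 33.6 CPM against 3.81, 2.90 and 4.44 CPM, and MT1X at 41.4, 41.2 and 39.9 CPM against 7.31, 6.94 and 6.54 CPM. MT1E was at 117, 113 and 116 CPM against 20.4, 19.4 and 20.9 CPM, and MT2A, the broadly expressed form, at 195, 196 and 201 CPM against 56.1, 63.9 and 62.0 CPM. No library overlapped in any of these genes. MT1M was sparse, at 13, 29 and 34 counts with Saposhnikoviae Radix and 1, 1 and 2 counts with Menthae Herba. The exporter SLC30A1 was at 118, 110.5 and 117 CPM against 75.1, 58.5 and 55.5 CPM, a log2 difference of 0.86.

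The metallothionein genes are near-identical copies, so the split of reads among them is uncertain. Summed to 1 row, the MT1 and MT2 genes differed by a log2 of 2.18 (edgeR adjusted p = 1.9e-22). The low level belonged to Menthae Herba. MT1G averaged 62.9 CPM in vehicle and 59.3 CPM with Saposhnikoviae Radix at 20 ug/mL, while with Menthae Herba it averaged 54.9 CPM at 20 ug/mL, 37.2 CPM at 100 ug/mL and 6.25 CPM at 500 ug/mL. Against its own low dose the summed metallothionein level was -2.03 on the log2 scale with Menthae Herba (edgeR adjusted p = 1.6e-21) and -0.02 with Saposhnikoviae Radix (adjusted p = 0.98).

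Metallothioneins also led the small set of genes that differed at 100 ug/mL. Of the 8 tested members, 6 were called there: MT1G, MT1F, MT1X, MT1E, MT2A and MT1M, and the summed row differed by a log2 of 0.64 (edgeR adjusted p = 0.00016). The zinc importer SLC39A4 was called in the opposite direction at 100 ug/mL, at a mean of 71.7 CPM with Saposhnikoviae Radix and 87.8 CPM with Menthae Herba. At 500 ug/mL it was at 75.0, 76.4 and 78.3 CPM against 115, 124 and 113 CPM, and the importer SLC39A10 at 13.9, 16.4 and 16.7 CPM against 29.4, 29.5 and 26.3 CPM. Both importers were thus higher in all 3 Menthae Herba libraries, with log2 differences of -0.61 and -0.86.

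Not all zinc carriers followed. Of the SLC39A importer family, 12 of 14 genes were tested, and 3 were higher with Saposhnikoviae Radix and 2 with Menthae Herba. SLC39A14, which carries zinc and iron into hepatocytes, was among the 3, at a mean of 899.9 CPM against 683 CPM. Of the SLC30A exporter family, 8 of 10 were tested, and only SLC30A1 was called. The 2 families were chosen after the values had been seen.

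Cholesterol synthesis and uptake genes were higher with Saposhnikoviae Radix in 23 of 25 tested members, with 0 lower and a median log2 difference of 0.70. HMGCS1, which makes HMG-CoA, was at 449.6, 433 and 439 CPM with Saposhnikoviae Radix and at 183, 203 and 195 CPM with Menthae Herba. SQLE, squalene epoxidase, was at 359.7, 359 and 360.1 CPM against 205, 182 and 184 CPM. In both genes every Saposhnikoviae Radix library exceeded every Menthae Herba library by more than the spread within either group, with log2 differences of 1.18 ± 0.06 and 0.92 ± 0.04 (SE, n = 3 and 3, edgeR adjusted p = 1.4e-20 and 1.9e-22).

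SREBF2, the regulator of the list, differed less, at a mean of 213 CPM against 165 CPM and a log2 difference of 0.37. INSIG1, at 0.75, and PMVK, at -0.08, did not pass the test. Against the low dose of the same extract, HMGCS1 had a log2 difference of -1.40 with Menthae Herba (edgeR adjusted p = 2.4e-23) and -0.21 with Saposhnikoviae Radix (adjusted p = 0.083). In the list, 24 members fell with Menthae Herba (12.5% of all genes fell) and 7 with Saposhnikoviae Radix (0.442%), of which FDFT1, squalene synthase, was 1, at -0.18 next to -0.88 with Menthae Herba.

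Fatty acid synthesis genes were higher with Saposhnikoviae Radix in 13 of 14 tested members, with a median log2 difference of 0.45. FADS2, a desaturase of polyunsaturated fatty acids, was at 226, 215 and 221 CPM against 114, 106 and 110.1 CPM. ACSS2, which makes acetyl-CoA from acetate, was at 109, 107 and 109 CPM against 53.5, 56.3 and 56.2 CPM. SCD, which makes monounsaturated fatty acids, was at 2364, 2376 and 2366 CPM against 1359, 1355 and 1322 CPM. All 3 fell against their own low dose with both extracts, by 1.29, 1.31 and 1.00 on the log2 scale with Menthae Herba and by 0.37, 0.37 and 0.26 with Saposhnikoviae Radix. ACACB, at 0.08, was the member that did not pass.

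Genes of fatty acid oxidation and of the lipid droplet were mixed, with 3 of 18 higher with Saposhnikoviae Radix, 1 without Menthae Herba replicate 2 or Saposhnikoviae Radix replicate 3, and 7 with Menthae Herba. PLIN2, which coats lipid droplets, was at 119, 128 and 128 CPM against 204, 212 and 219 CPM. CPT1A, which admits fatty acids to mitochondria, was at 45.4, 46.5 and 46.7 CPM against 69.1, 71.3 and 70.5 CPM. Both were higher in all Menthae Herba libraries, while the fatty acid carrier FABP1 was higher with Saposhnikoviae Radix, at a mean of 107 CPM against 82.5 CPM.

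**Figure D2:**
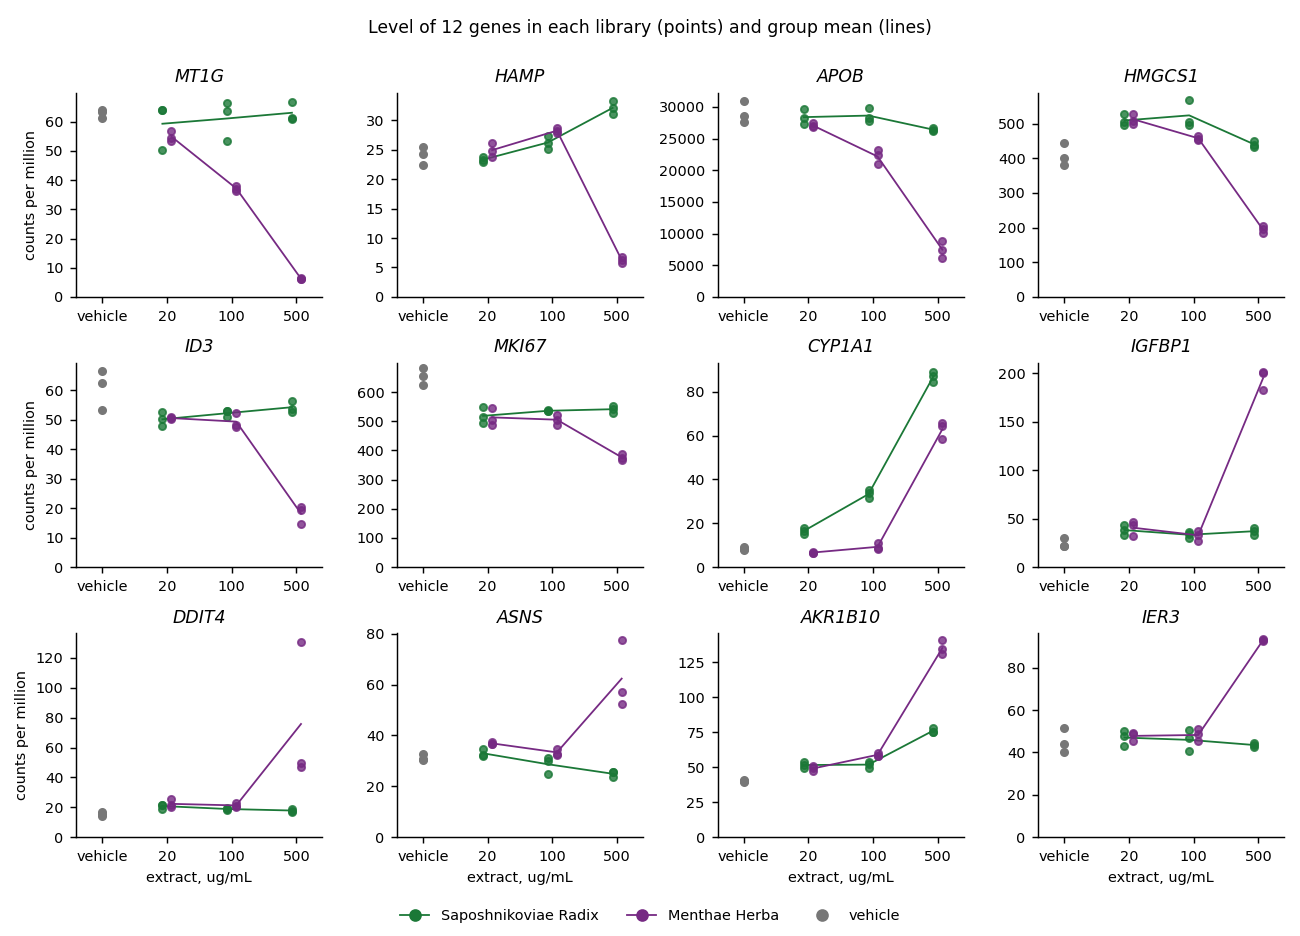
Level in CPM (vertical) of 12 genes in each library by dose of extract (horizontal, ug/mL), with vehicle at the left. Points are libraries and lines join group means. At 500 ug/mL MT1G, HAMP, APOB, HMGCS1, ID3 and MKI67 lie lower with Menthae Herba, and IGFBP1, DDIT4, ASNS, AKR1B10 and IER3 lie higher, while CYP1A1 lies higher with Saposhnikoviae Radix at all 3 doses.

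Genes of secreted liver proteins were also higher with Saposhnikoviae Radix. APOB, the scaffold protein of VLDL and LDL, at chr2:21001429-21044073, was at 26718, 26166 and 26344 CPM with Saposhnikoviae Radix and at 8886, 7411 and 6115 CPM with Menthae Herba. The Menthae Herba libraries spread more widely but stayed far below, a log2 difference of 1.82 ± 0.08 (SE, n = 3 and 3, edgeR adjusted p = 8.3e-23). APOB was already called at 100 ug/mL, at means of 28629 CPM and 22171 CPM. MTTP, which loads lipid onto APOB, was at 101, 102 and 107 CPM against 71.7, 70.0 and 62.2 CPM at 500 ug/mL.

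In the list of apolipoproteins and lipoprotein assembly, 10 of 17 were higher with Saposhnikoviae Radix and 2 with Menthae Herba, with a median log2 difference of 0.24. The 2 were APOC1, at a mean of 83.4 CPM against 108 CPM, and APOM, at 55.2 CPM against 71.4 CPM, both small exchangeable or HDL-borne apolipoproteins. APOA1, the main protein of HDL, differed by 0.24 in the other direction.

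Coagulation and complement factors were higher with Saposhnikoviae Radix in 16 of 22 tested genes and lower in 0, with a median log2 difference of 0.57. C4A was at 335, 327 and 345 CPM against 167, 174 and 142 CPM, and its near-identical copy C4B makes the single value uncertain: summed, the copies differed by a log2 of 1.11. F5, coagulation factor V, was at 223, 207 and 222 CPM against 122, 111 and 98.8 CPM. C8A, of the membrane attack complex, was at 12.0, 12.2 and 13.9 CPM against 6.78, 6.71 and 5.59 CPM. The central complement protein C3 averaged 2382 CPM against 1271 CPM.

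Plasma carriers were called less uniformly, with 11 of 21 higher, 1 lower (0 without Menthae Herba replicate 3) and a median of 0.27. HPX, which binds heme, was at 13.8, 13.7 and 15.1 CPM against 7.40, 7.09 and 7.89 CPM, and HP, which binds free hemoglobin, at 203, 198 and 193 CPM against 109, 108 and 106 CPM. ALB was at 9087, 9349 and 9406 CPM against 7267, 7173 and 6602 CPM, a smaller log2 difference of 0.40. TTR, a carrier of thyroid hormone and retinol-binding protein, was the gene higher with Menthae Herba, at 71.1, 65.5 and 67.2 CPM against 82.4, 76.1 and 87.5 CPM.

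Large matrix and receptor genes were among the 12 highest: RELN, a secreted matrix glycoprotein, was at 1523, 1523 and 1566 CPM against 669.8, 580.2 and 507 CPM, and LRP1, a large endocytic receptor, at 639, 628 and 623 CPM against 281, 264 and 232 CPM. SLCO4C1, an organic anion transporter, was at 43.3, 44.3 and 46.7 CPM against 19.7, 17.0 and 17.8 CPM. Replicate 1 of Menthae Herba was the highest of its group in all 3, and no libraries overlapped. The difference also had a trend with gene length, seen in bins of mean transcript length of genes of at least 5 CPM. At 500 ug/mL the median log2 difference went from -0.057 in the bin of shortest transcripts to 0.057 in that of the longest. At 20 ug/mL these medians were -0.02 and 0.011. The part of this trend in the values of the large genes was not tested.

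Hepcidin and the ID genes were higher with Saposhnikoviae Radix. HAMP was at 33.2, 31.0 and 32.0 CPM with Saposhnikoviae Radix and at 6.26, 5.83 and 6.74 CPM with Menthae Herba, a log2 difference of 2.35 ± 0.10 (SE, n = 3 and 3, edgeR adjusted p = 1.2e-23). The groups stood on either side of their own 20 ug/mL means of 23.3 CPM and 24.9 CPM, and of the vehicle mean of 24.0 CPM. ID3, an inhibitor of basic helix-loop-helix factors, was at 56.4, 52.7 and 53.4 CPM against 14.5, 20.5 and 19.4 CPM, and ID1 at 143, 145 and 140.4 CPM against 50.8, 67.2 and 70.0 CPM.

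These belong, with HAMP apart, to the list of TGF-beta targets and matrix genes, where 9 of 16 tested members were higher with Saposhnikoviae Radix and 5 with Menthae Herba. Besides ID1 and ID3 the higher ones included ID2 at a log2 difference of 1.01 and the inhibitory SMAD genes SMAD7 at 1.08 and SMAD6 at 0.66, known targets of BMP signalling, and FN1, fibronectin, at 1.05. The lower ones included CCN1, a matricellular protein, at 9.46, 9.80 and 10.0 CPM against 16.7, 13.2 and 11.9 CPM. CCN1, TAGLN, TGFB1 and CCN2 had log2 differences of -0.52, -0.43, -0.23 and -0.21. The list thus moved in both directions within the same libraries. Without Menthae Herba replicate 1, Saposhnikoviae Radix replicate 1 or Saposhnikoviae Radix replicate 2, the count of 5 was 3.

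Mitosis genes were higher with Saposhnikoviae Radix in 27 of 30 members, with 0 lower and a median log2 difference of 0.31. MKI67, the proliferation antigen, was at 553, 542 and 530.0 CPM against 374, 388 and 367 CPM, a log2 difference of 0.52 ± 0.05 (SE, n = 3 and 3, edgeR adjusted p = 2.1e-11). CENPE, a kinetochore motor, was at 67.4, 69.7 and 67.1 CPM against 43.9, 49.6 and 38.3 CPM. KIF20A, whose promoter holds 2 CCAAT boxes, was at 92.8, 96.2 and 90.0 CPM against 59.7, 62.1 and 64.7 CPM. All 3 genes separated the groups fully.

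DNA replication genes showed no such shift: of 32 members 5 were higher and 2 lower, with a median of 0.06. These counts are near the shares of all genes tested, 11.8% higher and 9.35% lower. Leaving out Menthae Herba replicate 1 or any 1 Saposhnikoviae Radix library left 3 higher. PCNA, the replication clamp, was at 356, 359 and 349.8 CPM against 349, 364 and 354 CPM, overlapping values. E2F1 and RRM2, which act at the entry to S phase, were the 2 members higher with Menthae Herba, E2F1 at 65.1, 63.4 and 64.5 CPM against 78.2, 76.4 and 78.9 CPM. The difference between the mitosis and replication lists was not tested.

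WNT beta-catenin targets were higher with Saposhnikoviae Radix in 13 of 15 members, with 0 lower and a median of 0.24. HepG2 carries an activating change in beta-catenin, so these genes are active in the line at rest. NKD1, a feedback inhibitor of the pathway, was at 477, 432 and 435 CPM against 276, 288 and 295 CPM, and NOTUM, a secreted WNT inhibitor, at 312, 309.8 and 311 CPM against 202, 217 and 216 CPM. AXIN2, often used as a readout of the pathway, differed by only 0.18. LEF1, at -0.50, and APCDD1, at 0.64, did not pass the test.

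ER chaperone and quality control genes were called in both directions. Of 18 members of the unfolded protein response list, 12 were higher with Saposhnikoviae Radix and 3 with Menthae Herba, with a median of 0.28. The chaperone HSP90B1 was at 1059.5, 1071 and 1075 CPM against 752, 714 and 671 CPM, and HSPA5, the main ER chaperone, differed by 0.49. HERPUD1, a stress-induced part of ER-associated degradation, was at 58.3, 56.7 and 55.4 CPM against 129, 77.2 and 71.8 CPM. Its log2 difference of -0.71 was -0.40 without Menthae Herba replicate 1, and without that library 1 of the list's members was called higher with Menthae Herba.

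Cytosolic heat shock genes were called for 6 of 18 members, all higher with Saposhnikoviae Radix, with a median of 0.07. The largest was HSPA1B, at 145, 146 and 136 CPM against 114, 121 and 114 CPM, a near-identical copy of HSPA1A, which at 0.17 did not pass. Without Menthae Herba replicate 1 the count of 6 was 2.

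**Figure D3:**
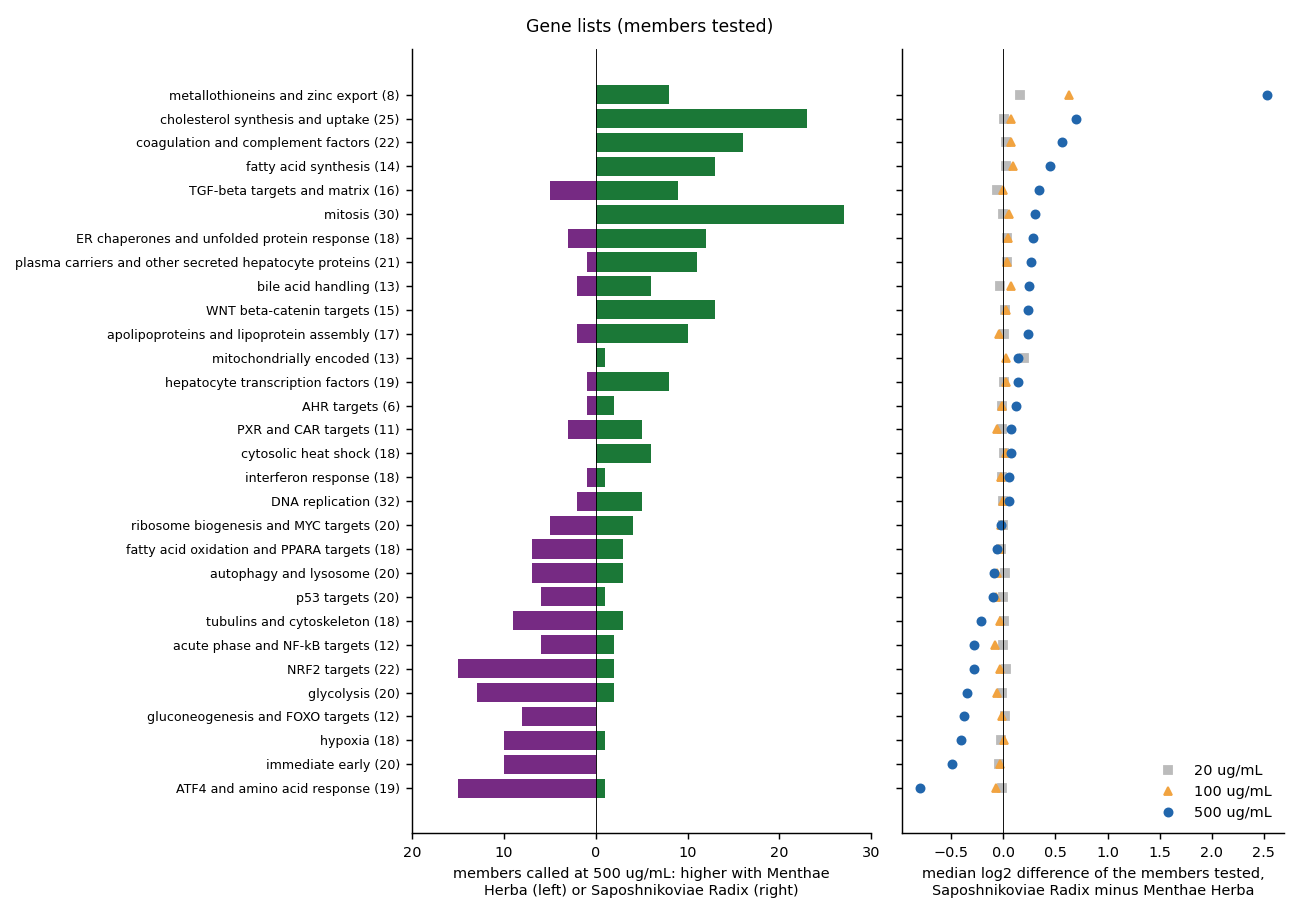
Left, members of each of 30 lists called at 500 ug/mL, with bars to the right for higher with Saposhnikoviae Radix and to the left for higher with Menthae Herba. Right, the median log2 difference of the members tested at 20, 100 and 500 ug/mL, from 2.53 for the metallothioneins to -0.80 for the ATF4 list at 500 ug/mL.

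On the other side of the contrast, the gene with the lowest log2 difference of the named genes was IGFBP1, an insulin-repressed binding protein of insulin-like growth factors, at chr7:45888357-45893668. It was at 33.3, 37.0 and 40.7 CPM with Saposhnikoviae Radix and at 200.5, 183 and 201 CPM with Menthae Herba, a log2 difference of -2.40 ± 0.21 (SE, n = 3 and 3, edgeR adjusted p = 1.3e-12). The Saposhnikoviae Radix libraries lay near the 38.2 CPM of their own 20 ug/mL group. G6PC1, the last enzyme of glucose release, was at 3.07, 2.64 and 3.09 CPM against 10.6, 7.85 and 10.5 CPM, and PCK1, an early gluconeogenic enzyme, at 1.88, 2.22 and 2.34 CPM against 4.03, 3.70 and 3.57 CPM.

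Of 12 tested genes of gluconeogenesis and FOXO targets, 8 were higher with Menthae Herba and 0 with Saposhnikoviae Radix, with a median of -0.38. DEPP1, a FOXO-induced gene outside the list, was at 10.4, 11.1 and 10.9 CPM against 51.8, 46.5 and 44.2 CPM. The coactivator PPARGC1A differed by -0.60 and TXNIP, an inhibitor of glucose uptake, by -0.46. INSR, SESN1, IRS2 and KLF15 did not pass.

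The ATF4 and amino acid response list had 15 of 19 tested members higher with Menthae Herba and 1 higher with Saposhnikoviae Radix, with a median log2 difference of -0.80. ASNS, asparagine synthetase, was at 25.6, 23.8 and 25.4 CPM with Saposhnikoviae Radix and at 77.5, 57.2 and 52.5 CPM with Menthae Herba, a log2 difference of -1.33 ± 0.08 (SE, n = 3 and 3, edgeR adjusted p = 4.7e-17). DDIT4, which restrains mTORC1, was at 17.2, 19.1 and 17.1 CPM against 131, 47.3 and 49.4 CPM. ATF3, a stress-induced factor, was at 3.50, 3.06 and 2.96 CPM against 15.9, 6.48 and 6.58 CPM. In each gene the groups were apart, but Menthae Herba replicate 1 stood well above replicates 2 and 3.

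That library was the highest of its group in all 15 of these genes and exceeded both others by more than 1.5 times in 6. The list's median deviation from the 6-library mean was 0.82 on the log2 scale in replicate 1 and 0.10 and 0.15 in replicates 2 and 3, and -0.36 to -0.29 in the Saposhnikoviae Radix libraries. Without replicate 1, 14 members were called higher with Menthae Herba and the median was -0.49. DDIT4 then differed by -1.45 in place of -2.10, ATF3 by -1.05 in place of -1.63, SLC7A11 by -0.88 in place of -1.32 and SESN2 by -0.52 in place of -0.90. TRIB3, a pseudokinase of the same response, was at 126, 119 and 119 CPM against 185, 131 and 132 CPM, and its call was lost, from -0.30 to -0.13 (edgeR adjusted p = 0.0041 and 0.24).

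**Figure D4:**
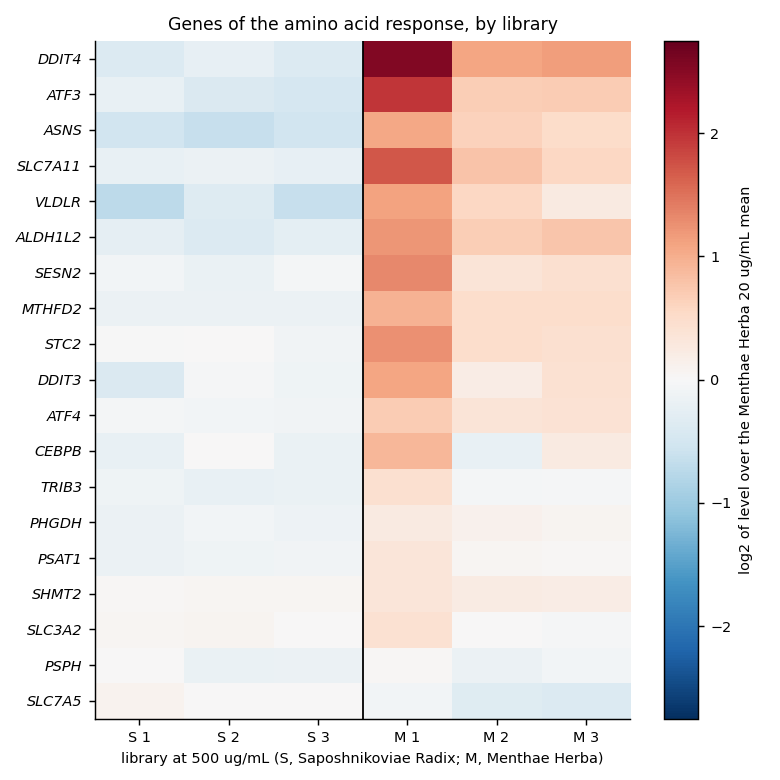
Log2 of the level in each library at 500 ug/mL over the mean of the Menthae Herba 20 ug/mL group, for the 19 tested genes of the ATF4 list (rows) in the 3 Saposhnikoviae Radix (S) and 3 Menthae Herba (M) libraries (columns). The M 1 column is the reddest, and M 2 and M 3 lie above the S columns for DDIT4, ATF3, ASNS and SLC7A11.

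SLC7A5, an amino acid transporter, was the member higher with Saposhnikoviae Radix, at 815, 772 and 767 CPM against 722, 603 and 587 CPM. Other stress-linked genes among the 12 lowest were GDF15, a secreted stress cytokine, at 91.1, 90.4 and 94.9 CPM against 348, 249 and 235 CPM, and ADM2, a peptide hormone of the adrenomedullin family, at 3.99, 3.85 and 3.22 CPM against 17.0, 8.62 and 8.05 CPM. Without Menthae Herba replicate 1, the highest library in both, the log2 differences of GDF15 and ADM2 were -1.403 and -1.185. GDF15 headed the p53 list, in which 6 of 20 members were higher with Menthae Herba and 1, ZMAT3, with Saposhnikoviae Radix. The single call was absent without Menthae Herba replicate 1 or 3 or Saposhnikoviae Radix replicate 1 or 2. The 6 members higher with Menthae Herba were all highest in its replicate 1, as were 626 of the 1588 such genes over all. CDKN1A, the p21 cell cycle inhibitor, was at 61.8, 59.7 and 58.1 CPM against 89.9, 75.7 and 84.1 CPM, whereas BAX, FAS, DDB2 and XPC did not pass.

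NRF2 targets were higher with Menthae Herba in 15 of 22 members and lower in 2, with a median of -0.28. AKR1B10, an aldo-keto reductase, was at 75.4, 77.6 and 75.3 CPM against 131, 140.5 and 134 CPM, a log2 difference of -0.83 ± 0.06 (SE, n = 3 and 3, edgeR adjusted p = 3.2e-16). NQO1, a quinone reductase, was at 620.3, 639 and 624 CPM against 794, 858 and 803 CPM. Both also rose with Saposhnikoviae Radix against its own low dose, AKR1B10 by a log2 of 0.57 and NQO1 by 0.40 (edgeR adjusted p = 6.5e-09 and 1.8e-09), next to 1.46 and 0.85 with Menthae Herba (adjusted p = 1.6e-24 and 3.1e-22). In the list, 10 members rose with Saposhnikoviae Radix (0.389% of all genes rose) and 19 with Menthae Herba (10.8%).

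The interaction test called 12 of the 22 members toward Menthae Herba and 2 toward Saposhnikoviae Radix. Of the 2 members higher with Saposhnikoviae Radix, HMOX1, heme oxygenase, was at 57.3, 55.9 and 58.9 CPM against 42.5, 44.3 and 45.6 CPM. GCLM, which forms with GCLC the enzyme of the first step of glutathione synthesis, was at means of 49.3 CPM and 65.5 CPM. AKR1C1, at 851 CPM and 1158 CPM, shares much of its sequence with AKR1C2, so its split is uncertain.

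Glycolysis genes were higher with Menthae Herba in 13 of 20 members and lower in 2, with a median of -0.35. ALDOA, aldolase, was at 1239, 1195 and 1219 CPM against 1695, 1853 and 1877 CPM, and HK2, which commits glucose to the pathway, at 100.5, 105 and 108 CPM against 139, 145 and 145 CPM. The 2 members higher with Saposhnikoviae Radix were PKLR and SLC2A2, the liver forms of pyruvate kinase and glucose transporter, at 0.33 and 0.38. The hypoxia list, which shares SLC2A1 and PFKFB4 with it, had 10 of 18 higher with Menthae Herba and 1, ERO1A, lower, a call present only with all 6 libraries or without Menthae Herba replicate 1. NDRG1, a hypoxia-induced growth regulator, was at 43.3, 44.4 and 49.5 CPM against 65.7, 82.1 and 83.4 CPM. ADM and HILPDA, also hypoxia-responsive, did not pass, at 0.11 and -0.06.

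Immediate early genes were higher with Menthae Herba in 10 of 20 members and lower in 0, with a median of -0.49. Of these 10, 9 were highest in Menthae Herba replicate 1. Without that library 10 members were called and the median was -0.48. IER3, an early survival gene, was at 42.8, 43.5 and 44.3 CPM against 93.1, 92.5 and 93.6 CPM, with little spread in either group. JUN, a subunit of AP-1, was at 30.3, 26.1 and 26.5 CPM against 56.4, 45.4 and 44.6 CPM, and the feedback phosphatase DUSP1 at 5.08, 5.99 and 6.53 CPM against 13.2, 8.39 and 8.33 CPM. FOS was at means of 0.37 CPM and 0.50 CPM and did not pass. Of 12 tested acute phase and NF-kB genes, 6 were higher with Menthae Herba and 2, HAMP and FGB (fibrinogen beta chain), with Saposhnikoviae Radix, with a median of -0.28. CCL20, a chemokine, was at 12.1, 15.3 and 14.3 CPM against 29.1, 31.8 and 29.8 CPM, and CXCL8, a neutrophil chemokine, averaged 1.37 CPM against 2.78 CPM.

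CYP1A1 was the gene that separated the extracts at every dose. At 20 ug/mL it averaged 16.4 CPM with Saposhnikoviae Radix and 6.61 CPM with Menthae Herba, a log2 difference of 1.31 (edgeR adjusted p = 1.3e-10), and at 100 ug/mL 33.3 CPM and 9.22 CPM, a difference of 1.85 (adjusted p = 2.7e-18). At 500 ug/mL it was at 88.8, 87.1 and 84.6 CPM against 64.5, 65.5 and 58.6 CPM, a difference of 0.47 ± 0.07 (SE, n = 3 and 3, adjusted p = 2.1e-06). The vehicle mean was 8.25 CPM, below every library of either extract at 500 ug/mL. The difference at 500 ug/mL was smaller than at 20 ug/mL by 0.85 (edgeR interaction, adjusted p = 9.5e-06).

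The rest of the AHR list did not share this pattern. Of 6 tested members 2 were higher with Saposhnikoviae Radix, CYP1A1 and SLC7A5, and 1 with Menthae Herba, NQO1, which is also an NRF2 target. TIPARP and AHRR, the feedback genes of the receptor, were at means of 21.5 CPM and 19.3 CPM, and 0.98 CPM and 0.94 CPM, and did not pass. PXR and CAR targets were divided, with 5 of 11 higher and 3 lower. ALAS1, the first enzyme of heme synthesis, was at 43.6, 39.9 and 40.3 CPM against 58.5, 59.7 and 62.0 CPM, and CYP3A4 was at 0.13, 0.38 and 0.35 CPM against 0.31, 0.50 and 0.32 CPM, which did not pass.

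Among hepatocyte transcription factors 8 of 19 were higher with Saposhnikoviae Radix and 1 with Menthae Herba, or 2 without Menthae Herba replicate 2. CEBPA was at 133, 130.4 and 129 CPM against 83.5, 78.2 and 96.7 CPM, and the bile acid receptor gene NR1H4 at 51.2, 53.5 and 59.0 CPM against 41.3, 36.0 and 37.0 CPM. NR0B2, a repressor induced by that receptor, went the other way, at 23.1, 23.9 and 22.9 CPM against 48.2, 46.6 and 45.0 CPM. CYP8B1, of bile acid synthesis and repressed by NR0B2, was at 3.85, 4.27 and 4.11 CPM against 2.66, 2.29 and 2.26 CPM, and CYP7A1, the rate-limiting enzyme, at 20, 20 and 12 counts against 14, 5 and 5 counts.

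The interferon and mitochondrial lists had no more calls than the share of all genes. Interferon genes had 1 higher and 1 lower of 18, and mitochondrially encoded genes 1 higher of 13, or 2 without Menthae Herba replicate 1. Ribosome biogenesis genes and MYC targets were split, with 4 higher and 5 lower of 20. The 4 were 1 without Menthae Herba replicate 1 and 2 without Saposhnikoviae Radix replicate 2 or 3, and the 5 were 3 without Saposhnikoviae Radix replicate 2. MYC was at 177, 171 and 177 CPM against 231, 205 and 195 CPM. Among tubulins and cytoskeleton genes, 9 of 18 were higher with Menthae Herba and 3 lower (0 without Menthae Herba replicate 1, 1 without replicate 2), with TUBB6 at 13.0, 13.9 and 13.9 CPM against 20.7, 23.7 and 22.3 CPM. Among autophagy and lysosome genes, 7 of 20 were higher, with the cargo receptor SQSTM1 at 204, 201 and 207 CPM against 330.3, 320.3 and 325 CPM, and 3 lower, all of them the lysosomal genes CTSD, LAMP1 and LAMP2.

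**Figure D5:**
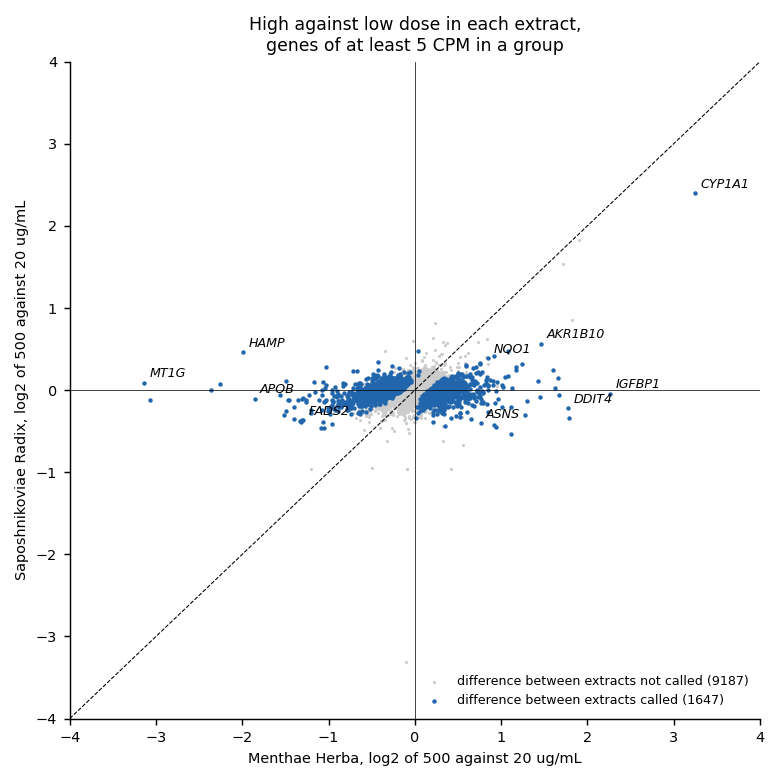
Log2 difference of 500 minus 20 ug/mL with Saposhnikoviae Radix (vertical) against that with Menthae Herba (horizontal) for 10834 genes of at least 5 CPM in a group, with equal change on the dashed line. The 1647 blue genes differed between the extracts in the interaction test. They spread mainly along the horizontal axis, CYP1A1 lies high on both axes, and HAMP and ASNS lie in opposite quadrants.

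The responses to dose of the extracts share no library, so their gene sets can be set side by side. Of the 66 genes that rose with Saposhnikoviae Radix between 20 and 500 ug/mL, 48 (72.7%) rose with Menthae Herba, against 10.8% of all genes tested. The 48 were 2.61% of the 1836 that rose with Menthae Herba, a far larger set. Of the 75 that fell with Saposhnikoviae Radix, 51 (68.0%) fell with Menthae Herba, against 12.5% of all genes tested. The 51 were 2.41% of the 2118 that fell with Menthae Herba. Opposite calls were made for 10 genes. HAMP, KIF20A, MTARC1 and GSTA1 (0.0236% of genes tested) rose with Saposhnikoviae Radix and fell with Menthae Herba, and ASNS, FILIP1L, SAT1, WNK4, PNRC1 and WIPI1 (0.0353%) did the reverse. This count was 3, 4 and 5 without the high-dose replicates 1, 2 and 3 of Saposhnikoviae Radix, 4 and 3 without its low-dose replicates 2 and 3, and up to 40 under other fits. The 66 and 75 genes are the 141 calls, whose number moved with the library left out as given beside it.

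HAMP rose by a log2 of 0.46 with Saposhnikoviae Radix and fell by 1.99 with Menthae Herba (edgeR adjusted p = 0.0011 and 8.7e-21). SAT1, the rate-limiting enzyme of polyamine breakdown, was at 75.5, 74.1 and 75.4 CPM against 142, 153 and 149 CPM at 500 ug/mL, with low-dose means of 85.9 CPM and 91.9 CPM between them. FILIP1L was at 19.4, 24.0 and 21.9 CPM against 45.6, 50.9 and 46.5 CPM, around low-dose means of 26.2 CPM and 26.5 CPM. GSTA1, a glutathione transferase, was at 53.7, 56.5 and 54.3 CPM against 41.6, 40.3 and 36.4 CPM.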

How the data were processed

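RNA libraries were made with a directional kit and read as 100 bp pairs, per the labels' protocols. Per the submitters' processing notes FastQC 0.11.9, Trim Galore 0.6.5, STAR 2.7.3a, RSEM 1.3.3 and GRCh38 were used. For the annotation release and the strandedness option, nothing is given in the sources used here. The authors deposited RSEM expected counts per gene, not normalized. Of these values 10.0% were not whole, and they were rounded. GENCODE 29 (GRCh38) gave symbols and coordinates for 57055 of 60675 IDs, and IDs outside it held 0.0459% of counts.

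The quasi-likelihood test of edgeR 4.0.16 (R 4.3.3) was run on TMM-scaled counts that passed filterByExpr (minimum count 10), in 1 fit of 57 libraries in 22 groups with 35 residual degrees of freedom, 16982 genes and a coefficient of variation of 4.7%. Groups with 1 library were not in the fit. CPM are TMM-scaled. Adjusted p was called under 0.05. Counts were simulated for the 500 ug/mL comparison over 16410 genes, with the spread of the fit. Changed genes were drawn only from those with a mean of at least 5 CPM. Of 100 changed 1.5-fold 97% were recovered, and of 100 changed 2-fold 100%, with 6 unchanged genes called. Recovery of sparser genes, or of smaller changes such as the median called log2 difference of 0.28, was not simulated. The simulation gave a gene the same spread in every group and changed far fewer genes than the 3600 called. Its counts therefore do not describe the wider scatter of the Menthae Herba libraries. Depth limits precision through counting error in sparse genes.

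Samples were grouped by their labels. Members, 30 gene lists and the naming rule were chosen with earlier results of these data known. Named genes were the 12 highest and 12 lowest log2 differences at 500 ug/mL among called protein-coding genes of at least 5 CPM whose libraries did not overlap, up to 3 called members per list, a panel of 8 genes, and 4 opposite movers per direction. Other list members named, and the zinc transporter families, were chosen after their values were seen, as were the metal response and ATF4 motifs. No 2 libraries of a 500 ug/mL group were copies (chi-square per gene at least 1.96). This value was 1.96 to 2.45 between Saposhnikoviae Radix libraries and 4.22 to 7.84 between Menthae Herba libraries. It was highest in the Menthae Herba pairs with replicate 1. The spread shared by all groups of the fit takes no account of this difference between the extracts. Alternatives were DESeq2 1.42.0, RLE scaling, other filters, fits of fewer groups, a replicate block, GC and length correction (per-library trends as edgeR offsets), each library left out, and copies summed. Values of some single genes are not reported here.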

Additional observations from a re-analysis of the deposited data

Results flagged for a closer look

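The difference between the extracts changed with dose for 1803 genes in the edgeR interaction test, and 89 of the 104 named genes called at 500 ug/mL were among them. Most named genes were picked by their difference at 500 ug/mL, and the interaction uses the same 500 ug/mL libraries. A large overlap was therefore built in and is no separate support. For 10 genes the extracts were called in opposite directions against their own low dose, which fixes the sign of their interaction. The interaction, on the log2 scale of Saposhnikoviae Radix minus Menthae Herba, was 2.45 for HAMP, 0.62 for KIF20A, 0.59 for MTARC1 and 0.55 for GSTA1, which were higher at 500 ug/mL with Saposhnikoviae Radix. It was -1.17 for ASNS, -1.11 for FILIP1L, -0.88 for SAT1, -0.78 for WNK4, -0.61 for PNRC1 and -0.55 for WIPI1. CYP1A1 was the named gene whose interaction, -0.85, ran against its difference at 500 ug/mL. No group had the 4 samples that a test for outlying libraries needs.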

How the results depend on the processing

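Of 1665 alternative values of the named genes 1651 kept direction and call, 0 reversed, and 14 lost their call, in BOP1, HSPA1B, HSPB1, POLE2 and TRIB3. None of the 480 alternative list medians changed sign, and 18 moved by more than their spread. Genes of at least 2-fold difference were 89 with a mean of at least 1 CPM. Genes called at 500 against 20 ug/mL with Saposhnikoviae Radix were 250 without a filter, 354 with the trend on GC content and length removed, 275 with only set 12 and 389 with only the groups of the contrast. The 100 ug/mL count was 154 and the 20 ug/mL count 91 without a filter, and the latter 2 with only its groups. Opposite movers were 18 by DESeq2, 30 with the trend removed, 24 without a filter, 21 with only set 12 and 34 with only the groups. With single libraries left out, counts were 2864 to 3161 at 500 ug/mL, 171 to 194 at 2-fold, 1457 to 1648 for the interaction, 3230 to 3543 for Menthae Herba and 57 to 102 for Saposhnikoviae Radix by dose, 9 to 21 at 100 ug/mL, 1 to 2 at 20 ug/mL and 3 to 11 opposite movers. The cause of these moves was not tested.

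Same-numbered high-dose libraries deviated with correlations of 0.17, -0.15 and -0.2, and unmatched ones with -0.23 to 0.34. With so few libraries these values cannot tell if the numbers pair the samples, and the lower doses were not compared. With the replicate block in set 12 the counts were 4378 at 500 ug/mL, 47 at 100 ug/mL, 314 for Saposhnikoviae Radix by dose and 28 opposite movers, and with the block and the trend removed 4470, 420 for that dose comparison and 40 opposite movers. Depth limits sparse genes such as MT1M and CYP3A4, where counts of 1 to 34 leave wide error.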
